A study of Lolium perenne with 10 samples.

Results

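The 150 genes described here were raised in one temperature group of perennial ryegrass (Lolium perenne) seedlings and stayed close to control in 3 other treatments. They were chosen by measured values, from 46394 genes of a leaf RNA-seq count table. A gene was kept if at least 10 reads were counted in both libraries of the title-heat, drought, title-cold or control group, which left 21817 genes. For each kept gene the level as CPM (the count scaled to the size of its library) was put on the scale log2(CPM + 1), averaged over the libraries of a group and set against the control average. In all, 690 genes differed from control by at least 1 in title-heat and by less than 1, up or down, in drought, submergence and title-cold, and the 150 with the highest difference in title-heat are the members.

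All plants were wild type (WT), and each library was made from the leaves of 30 seedlings kept at 22 °C in the 16 h light period and 18 °C in the dark. The groups, of 2 libraries each, are title-heat, drought (7 days without water, begun at 7 days of age), submergence, title-cold and an untreated control. Both temperature treatments were given for 12 h at 14 days of age, one at 4 °C and one at 42 °C. The title-heat libraries are named heat in their titles and cold in their treatment field, and the title-cold libraries carry the opposite pair of words, so neither group can be given a temperature here. For control and submerged seedlings the age, and for submergence the duration, is not given in the sources used here. One protocol field speaks of Arabidopsis, with other drought and low-temperature durations and a recovery period, and another speaks of bermudagrass. Age and treatment therefore cannot be told apart in comparisons with control.

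Plants meet sudden heat with heat shock transcription factors, which switch on chaperones that hold unfolding proteins in solution. They meet cold with CBF/DREB transcription factors, which switch on protective proteins and enzymes of membrane and sugar metabolism. Genes that answer one stress and not others are used as markers of that stress. The series title names LpHSFC1b, a heat shock factor, but the members carry identifiers of assembled sequence clusters, and 0 of the 46394 identifiers matched the 56406 genes of the Kyuss_2.0 reference table. No member is therefore given a gene name or a function, and which of these pathways it belongs to is not known.

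Depth was even, at 10847727 to 12605087 counts a library. Replicates correlated at r = 0.96 to 0.982 over kept genes, which are not independent of each other, and differed by more than sampling noise. Nothing in the labels says that replicates were separate cultures, so any error given here is the spread between 2 libraries, which can be technical in part. In leaf RNA, more cells that use a gene and more RNA per cell cannot be told apart.

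The members were few reads in every group except title-heat. They held 0.978% and 0.971% of all counts in the title-heat libraries, against 0.0736% and 0.0765% in the drought libraries, 0.101% and 0.0987% in the submerged ones, 0.0878% and 0.0856% in title-cold, and 0.0702% and 0.0792% in control. Both title-heat libraries stood above the other 8 in this share. Much of that share sat in a few genes, since the 3 most-read members held 49.1% of the members' title-heat counts and the 10 most-read held 72.4%, while the 75 least-read held 4.22%. Without the 10 most-read members the share was 0.269 ± 0.00457% in title-heat, against 0.0342 ± 0.00217% under drought, 0.0418 ± 0.000659% in submergence, 0.0451 ± 0.000777% in title-cold and 0.0266 ± 0.00349% in control (SD, n = 2). These sums describe the choice, because the same counts picked the genes.

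**Figure D1:**
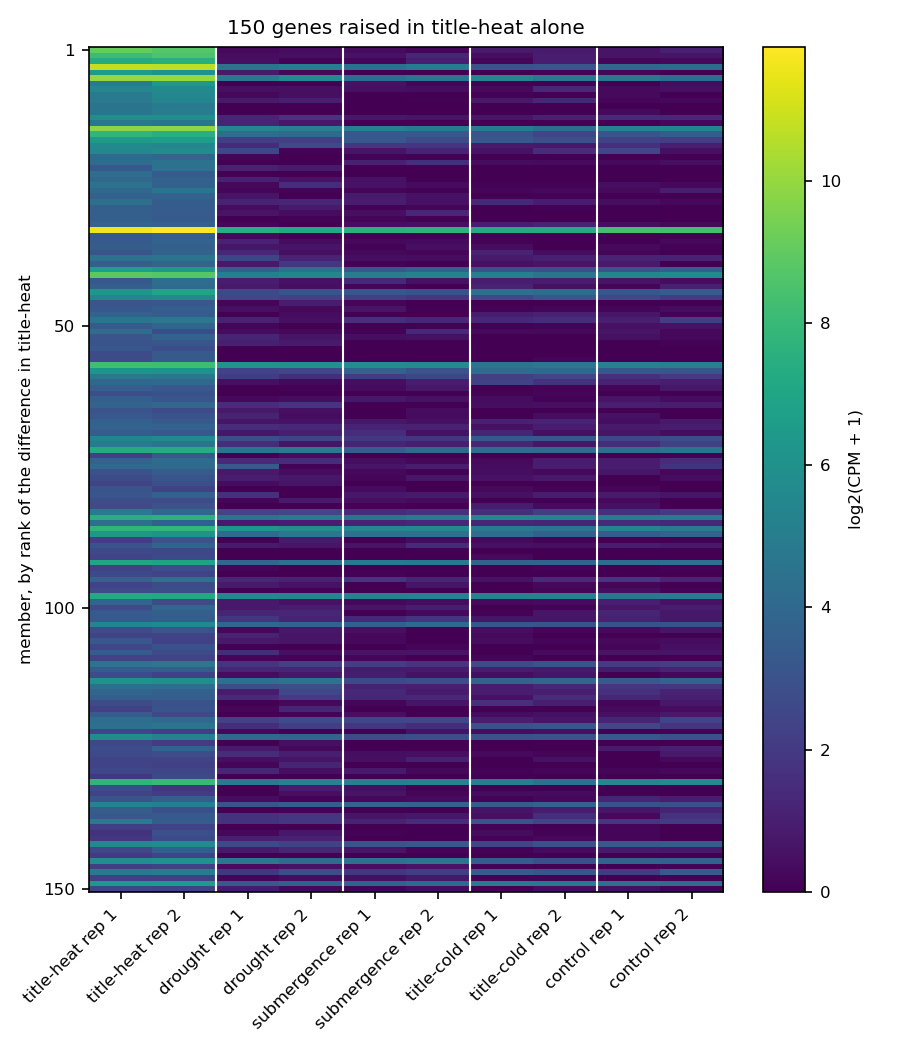
Level of each of the 150 members (rows, by rank) in each of the 10 libraries (columns), as log2(CPM + 1) in colour. Both title-heat columns are brighter than the other 8 in every row, and a few rows, among them the member ranked 33, are bright throughout.

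The median member had a mean level of 11.2 CPM in title-heat, with a range from 3.65 to 3458 CPM. The median was 0.747 CPM among drought means, 0.365 CPM among submergence means, 0.377 CPM for title-cold and 0.402 CPM for control. Over all kept genes the medians were close to one another, at 6.13, 6.49, 6.73, 7.01 and 6.03 CPM in the same order of groups. Most members were therefore genes of low level outside title-heat. Genes of low level elsewhere can pass the count filter through title-heat, so this contrast with all kept genes follows in part from the choice. On the log2(CPM + 1) scale the members' difference in title-heat ran from 2.18 to 8.06 with a median of 2.74. It was at least 3 in 56 members, at least 4 in 19 and at least 5 in 9. As a ratio of mean CPM to control, with members at 0 in control set at the bound that 3 counts per library allow, the median was 19.1 and 113 members were at 10 or more.

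The highest-ranked member, c162003.graph_c0, had 531 and 432 CPM in the title-heat libraries, against 0.208 and 0.303 under drought, 0.276 and 0.127 in submergence, 0.807 and 0.805 in title-cold, and 0.56 and 1.08 in control. Its lower title-heat library was 401-fold above the highest of the other 8. Behind the control values stand 5 and 11 counts, and behind the title-heat values 4844 and 3578. The second member, c158204.graph_c0, had 280 and 361 CPM in title-heat, against 0.312 and 0.404 under drought, 0.482 and 1.4 in submergence, 0.367 and 0.872 in title-cold, and 0.56 and 0.588 in control. In both genes title-heat lay apart from the rest, and no library of the other groups exceeded 1.4 CPM.

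The third member, c166637.graph_c0, was read 1423 and 1421 times in title-heat, against 4 and 1 times under drought, 2 and 16 in submergence, 2 and 14 in title-cold, and 1 and 2 in control. Its ratio of title-heat to control was 1063, with a 95% counting interval of 356.1 to 5055. The fifth member, c149307.graph_c0, was read 858 and 526 times in title-heat, against 8 and 2 under drought, 0 and 0 in submergence, 0 and 1 in title-cold, and 1 and 0 in control, a ratio of 1405 with an interval of 272.5 to 60119. Intervals and floors here cover counting error only. Title-heat did not overlap the other groups in either gene, and each ratio rests on 3 control reads or fewer.

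A pair of the leading members were well read in every group. The fourth, c151725.graph_c0, had 1748 and 1673 CPM in title-heat, against 22.6 and 30.5 under drought, 19.3 and 27.8 in submergence, 7.12 and 7.98 in title-cold, and 15.1 and 16.1 in control. Its mean was 109.7-fold the control mean, and title-cold was its lowest group, at a difference of −0.96. The sixth, c160494.graph_c0, had 1015.8 and 1015.7 CPM in title-heat, against 25.4 and 51.3 under drought, 18.4 and 24.1 in submergence, 41.2 and 26.9 in title-cold, and 26.7 and 18.1 in control. One drought and both title-cold libraries lay above both controls, while title-heat stood 45.3-fold above the control mean.

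The remaining members of the first 10 were near 0 outside title-heat. The seventh, c158965.graph_c1, had 28.7 and 79.7 CPM in title-heat, as a ratio the widest gap between replicates among the first 10, against 0 and 0 under drought, 0.482 and 0.127 in submergence, 0 and 0 in title-cold, and 0 and 0.294 in control. The eighth, c167488.graph_c1, had 44.4 and 51 CPM in title-heat, against 0.416 and 0.404 under drought, 0.413 and 0.318 in submergence, 0.22 and 1.61 in title-cold, and 0.224 and 0.392 in control. In both genes the lower title-heat library lay far above every other library. The ninth, c160970.graph_c0, had 27.4 and 45.2 CPM in title-heat, and its highest value elsewhere was 0.404 CPM, under drought. The tenth, c153447.graph_c0, had 27.6 and 40.9 CPM in title-heat, against 0.832 and 1.01 under drought, 0 and 0.0637 in submergence, 0.734 and 1.41 in title-cold, and 0.112 and 0.196 in control. Both drought and both title-cold libraries of this gene lay above both control libraries, with differences of 0.73 and 0.83 on the log2(CPM + 1) scale.

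**Figure D2:**
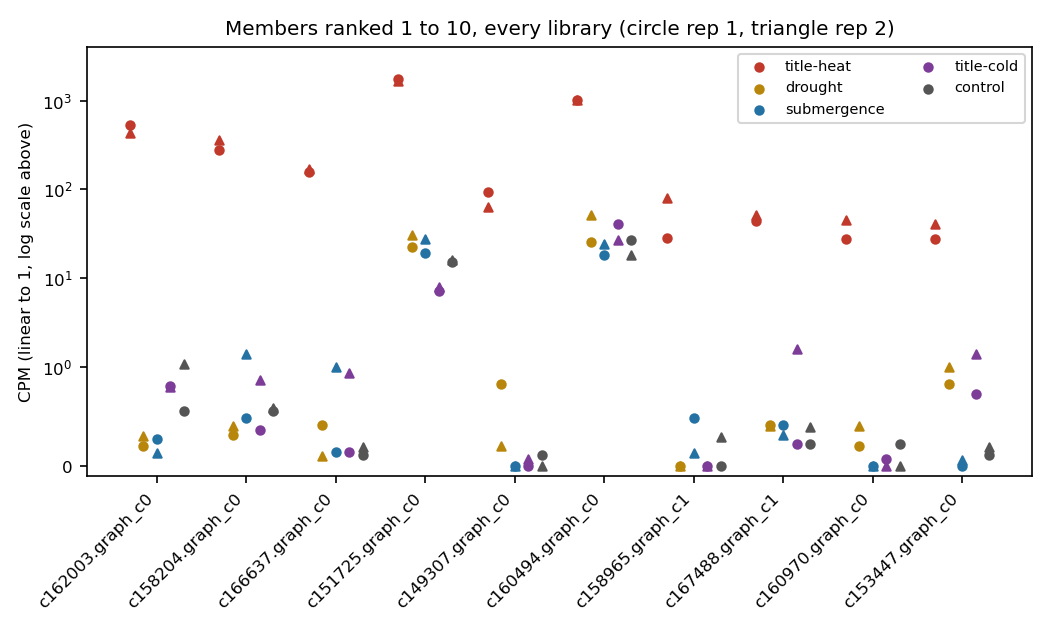
CPM of the members ranked 1 to 10 in every library, on an axis that is linear up to 1 CPM and logarithmic above, with groups from title-heat on the left to control on the right of each gene. Title-heat points lie between 27.4 and 1748 CPM, and except for the fourth and sixth genes the other groups lie at 1.61 CPM or below.

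Ordered by level, other members come first. The most abundant, c167734.graph_c0, ranked 33, had 3154 and 3762 CPM in title-heat, against 181.6 and 149.2 under drought, 198 and 204 in submergence, 152 and 159 in title-cold, and 315 and 307 in control. It was 11.1-fold higher in title-heat than in control, and it lay below control in the other 3 treatments, by −0.91 under drought, −0.63 in submergence and −0.997 in title-cold, the last just inside the limit. The next was the fourth-ranked gene, then the sixth, and then c153257.graph_c0, ranked 15, with 912 and 920 CPM in title-heat, against 43.8 and 35.6 under drought, 35.4 and 29.1 in submergence, 27.9 and 18 in title-cold, and 37.8 and 42.5 in control. The first-ranked member came next. CPM is not a level per length, so this order between genes also depends on transcript length, which the files do not give.

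Control level divided the members. In 31 of them (20.7%) no read was counted in either control library, where 1.71% of kept genes are at 0, and in a further 67 (44.7%) the control mean was under 1 CPM, against 15.1% of kept genes. A gene at 0 in control and within the limits elsewhere passes the count filter mainly through title-heat. The shares at low control level therefore follow in part from the choice. Another 36 members lay at 1 to 10 CPM and 16 above 10 CPM in control. Title-heat levels followed the same order, with medians of 6.4, 9.62, 23.7 and 205.5 CPM in these 4 classes. A minimum rise demands a higher title-heat level where control is higher, so the order of levels follows in part from the rule. Median ratios to control ran the other way among the measured classes, at 31.5 for members under 1 CPM, 8.74 for those at 1 to 10 CPM and 6.37 for those above 10 CPM, while members at 0 were at least 20.3-fold higher in the median. A minimum rise on the log2(CPM + 1) scale demands a larger ratio of a low gene, so part of this order follows from the rule.

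A subset was read in no library outside title-heat. Title-heat counts of 10 or more in both libraries, with 0 in the other 8, were found for 13 genes, and 7 of them are members. The remaining 6 had 10 to 41 counts per title-heat library and differences of 1.18 to 2.16, under the lowest member. Highest was c154501.graph_c0, ranked 11, with 205 and 228 counts, or 22.5 and 27.5 CPM, at least 79.3-fold above the control floor of 3 counts per library. The next were c142157.graph_c0, with 166 and 84 counts and at least 45-fold higher, and c164527.graph_c1, with 75 and 51 counts and at least 22.8-fold higher. A count of 0 allows up to 3 counts, so these genes are below detection elsewhere and not shown to be silent.

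Both title-heat libraries exceeded all 8 others in each of the 150 members. Among all 21817 kept genes this held for 10.5%, and because the rule used these libraries the contrast is a description. The lower title-heat library was a median of 6.13-fold above the highest of the others among members read elsewhere. The margin was under 2 in 2 members. One was c162005.graph_c2, ranked 138, with 28.5 and 10.5 CPM in title-heat, against 2.39 and 2.72 under drought, 1.24 and 1.91 in submergence, 7.48 and 4.56 in title-cold, and 2.69 and 3.04 in control. The other was c134057.graph_c0, ranked 75, with 15.6 and 16.2 CPM in title-heat and 9.05 and 0.101 CPM under drought, so that 1 drought library came near title-heat and the other lay at 1 count. These 2 genes were picked after their values were seen.

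Replicates of title-heat stood close together for most members. Their absolute difference on the log2(CPM + 1) scale had a median of 0.257, against 0.186 over the 13100 kept genes at or above the lowest member's level, and it was under 1 in 141 of the 150 members, where 98.2% of those kept genes were, and reached 1.56. Replicate 1 was the higher in 64 members and replicate 2 in 86, where replicate 1 was the higher in 48.1% of those kept genes. The spread between the libraries was therefore small beside the lowest rise of 2.18 in most genes, with 9 members in which the libraries differed by 1 or more.

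Each member could be tested in a model over all genes and all 10 libraries (edgeR's quasi-likelihood test, genes called at a Benjamini-Hochberg adjusted p below 0.05). In title-heat against control 147 of the 150 were called higher, where 12.3% of the 27571 tested genes were called higher. Since this contrast chose the members, nothing is read from that count. The 3 members that were not called show where the libraries disagree. Besides c134057.graph_c0, with 8 and 24 control counts, they were c82874.graph_c0, with 53 and 21 counts in title-heat, 0 and 9 under drought, 6 and 0 in submergence and 0 in title-cold and control, and c166402.graph_c0, with 76 and 76 counts in title-heat, 23 and 26 under drought, 8 and 11 in submergence, 6 and 29 in title-cold and 2 and 24 in control.

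The rise was next measured in libraries that took no part in a choice. A list of 150 was built by the same rule from replicate 2 of title-heat and control, with all libraries of the other groups, and the rise was taken as replicate 1 of title-heat minus replicate 1 of control. In that unused pair 141 of the 150 genes were higher by at least 1, where 14.8% of all kept genes were. Their median difference was 2.63 in the unused pair and 2.88 in the libraries that chose them, and 6 genes were at 0 or below. With the roles of the replicates exchanged, 142 of 150 were higher by at least 1 in the unused pair, where 14.1% of all kept genes were, with medians of 2.67 unused and 2.8 used and 2 genes at 0 or below. Each list shared 116 genes with the members. Scaling factors came from all libraries in both cases. Because replicates can be technical in part, these values describe agreement between libraries and are not a test of the treatment.

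**Figure D3:**
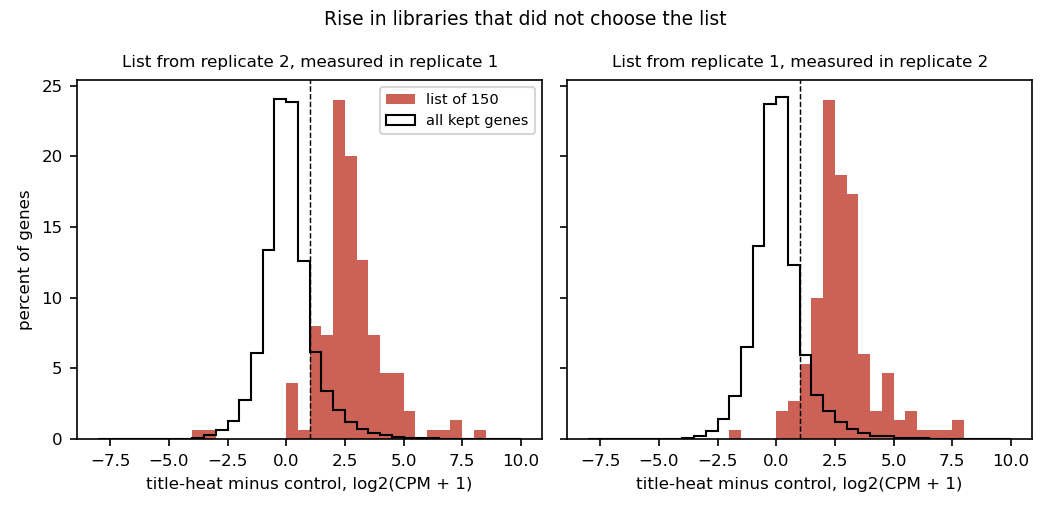
Percent of genes by title-heat minus control difference in 1 library of each group, for lists of 150 chosen with the other replicate (filled) and for all kept genes (outline), with the difference of 1 dashed. Medians of the lists are 2.63 on the left and 2.67 on the right, and all kept genes centre on 0.

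Outside title-heat the rule limited the members to differences below 1. It also bears on the sign, since a member with 0 counts in both controls cannot lie below control and all contrasts share the controls, so these counts are given as a description. Under drought 92 members lay above control and 47 below, with a median difference of 0.19, where 48% of kept genes lay above control, and 42.2% of the 9107 kept genes within all 3 limits. Under submergence 64 lay above and 70 below, and in title-cold 55 above and 74 below, with medians of 0 in both, where 51.1% and 54.1% of kept genes lay above control, and 54.1% and 58.3% of those within the limits. When libraries were scaled by total counts and not by TMM factors, submergence turned to 89 above and 45 below and title-cold to 74 above and 55 below. That scaling put the median of all kept genes at 0.49 in submergence and 0.52 in title-cold, where TMM factors gave 0.03 and 0.08. In title-heat it gave a median of −0.11 and upper-quartile factors −0.15, with all 150 members still above control. Under drought 91 lay above and 48 below with total counts, and 86 and 53 with upper-quartile factors. Drought was also the group in which the members' level outside title-heat was most often highest, in 68 members, against 27 in submergence, 26 in title-cold and 22 in control, with 7 at 0 throughout. Over kept genes the corresponding shares were 26.6%, 24.8%, 29.1% and 19.4%.

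A limit on log2(CPM + 1) leaves room for large ratios at low level, and 55 members (36.7%) were called against control in at least 1 of the other 3 treatments, where 66.5% of all tested genes were. The remaining 95 were called in none of the 3. The name "alone" is thus a statement about differences on that scale, not about calls. Under drought 22 members were called higher and 7 lower, where 15.2% and 11.7% of all tested genes were, in submergence 12 higher and 17 lower, where 32.2% and 17.1% were, and in title-cold 8 higher and 13 lower, where 11.1% and 12.2% were. The rule used these contrasts too, so the counts are given without further reading. The split moved with scaling, to 17 and 10 under drought with upper-quartile factors, to 6 and 23 in submergence with upper-quartile factors or 24 and 6 with total counts, and to 22 and 5 in title-cold with total counts. Of single libraries left out, control replicate 1 gave 14 members called under drought in place of 29, control replicate 2 gave 10, title-heat replicate 1 gave 18 and title-heat replicate 2 gave 17. For submergence, in place of 29, control replicate 1 gave 17, submergence replicate 1 gave 16 and submergence replicate 2 gave 17. For title-cold, in place of 21, the controls gave 5 and 6, the title-cold libraries 9 and 11, and title-heat replicate 1 gave 12.

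The members called higher under drought were mostly of low level. Their median was 3.74 CPM under drought and 1.52 in control, and 5 of the 22 had 0 counts in both controls. At the upper end was c160459.graph_c0, ranked 86 and named here because it was the most abundant of these, with 226.8 CPM in title-heat, 67.4 under drought and 37 in control. Among the 17 members called lower in submergence 5 had 0 counts in both submergence libraries. The most abundant member, c167734.graph_c0, was among those called lower in all 3 treatments, at 165.4 ± 22.9 CPM under drought, 200.7 ± 4.19 in submergence and 155.4 ± 5.48 in title-cold, against 311 ± 6.16 in control (SD, n = 2).

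With another treatment in place of control, title-heat was called higher than title-cold in 148 members, than drought in 132 and than submergence in 148, by the same test. Over all tested genes 19.6%, 10.9% and 20.9% were called higher in these comparisons. The rule used all of these libraries, so nothing is read from the counts.

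Rises confined to title-heat by this rule were a minority of its rises. Of the kept genes 3035 (13.9%) differed from control by at least 1 in title-heat, and 22.7% of these met the limits elsewhere. By the same rule 32.3% of the genes raised under drought, 35.3% of those raised in submergence and 43.7% of those raised in title-cold were raised in that treatment alone, which gave 1176, 1200 and 1279 genes against 690. These 4 comparisons share their controls, and the shares were not tested against each other. The count filter does not use the submergence libraries, so genes read in submergence alone are not among the 1200. The highest difference in each of these lists was 8.06 in title-heat, 5.4 under drought, 9.37 in submergence and 5.06 in title-cold.

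**Figure D4:**
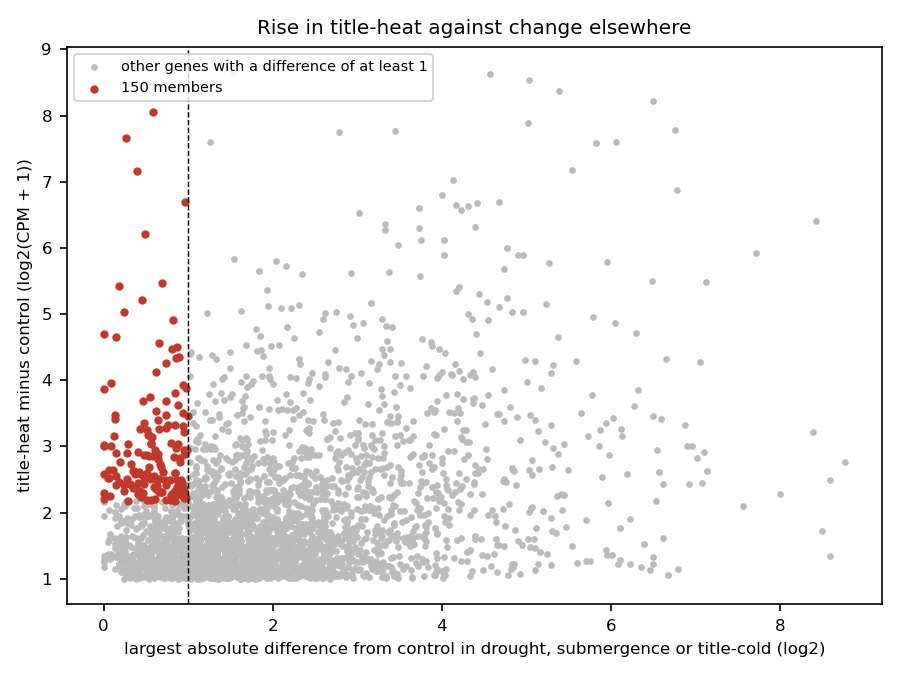
Title-heat minus control against the largest absolute difference from control in drought, submergence or title-cold, both on the log2(CPM + 1) scale, for the 3035 kept genes with a title-heat difference of at least 1. The 150 members (red) lie left of the dashed limit of 1, and most genes with a rise as high, including 5 above the first member, lie to its right.

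Most genes with an equally high rise changed elsewhere too. In all, 922 kept genes had a title-heat difference at or above that of the lowest member, and 772 of them passed a limit in another treatment. Of the 922, 545 were at least 1 above control under drought, 321 in submergence and 198 in title-cold, while 39, 107 and 139 were at least 1 below. Over all kept genes 16.7%, 15.6% and 13.4% were at least 1 above control in these treatments. The shares of all kept genes at least 1 below are not given here, so nothing is read from those counts. All of these differences share the controls. The first member was the sixth-highest of all kept genes by title-heat difference, and 12 members stood among the 100 highest.

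The edges of the list are soft. The last members, c165831.graph_c1 and c129073.graph_c0, and the first genes left out, c166530.graph_c0 and c163084.graph_c1, had differences of 2.18, 2.18, 2.17 and 2.17. The last 2 members differed in level, since c165831.graph_c1 had 90.9 ± 4.71 CPM in title-heat against 19.3 ± 2.14 in control, and c129073.graph_c0 had 4.47 ± 0.180 against 0.217 ± 0.169 (SD, n = 2). At the limit of 1, the gene c167734.graph_c0 was inside with −0.997 in title-cold and c164362.graph_c0 with 0.991 in title-cold. Just outside were c151146.graph_c0, with 290 ± 21.4 CPM in title-heat against 107.1 ± 3.26 under drought and 53 ± 0.829 in control, and c159448.graph_c1, with 67.7 ± 1.35 in title-heat against 4.87 ± 0.177 under drought and 10.8 ± 0.377 in control.

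Identifiers give one property that the rule did not use. Each is a cluster number and a component number, and the 150 members carry 144 cluster numbers, 6 of which have 2 members. An example is c161595, whose components c161595.graph_c1 (ranked 16) and c161595.graph_c2 (ranked 41) had 222 and 177 CPM, and 460 and 427 CPM, in the title-heat libraries, against 7.4 and 10.4, and 41 and 49.6, in the control libraries. Its component c161595.graph_c0, not a member, rose more under drought than in title-heat. Its means were 60 ± 3.39 CPM under drought, 22.1 ± 1.92 in title-heat and 10.8 ± 0.228 in control (SD, n = 2). In all 32 members (21.3%) share a number with another gene of the table, as do 24.7% of kept genes. What a shared number means is not given in the sources used here. If such components come from related sequences, reads could have been split between them, and their values are uncertain to that extent.

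Components outside the list that share a number with a member often rose in title-heat as well, and about as often under drought. There were 25 such partner clusters, of which 20 were kept by the count filter. A further 3 were tested but not kept. In title-heat 10 of the 23 tested were called higher and 0 lower by edgeR's quasi-likelihood test, where 12.3% of all tested genes were called higher, and 9 of the 20 had a difference of at least 1, where 13.9% of kept genes did. The median of the 20 was 0.79, with a range from −0.42 to 7.60, against 0 for all kept genes. By the same test 10 of the 20 were called higher in title-heat and 11 under drought. Over all tested genes 15.2% were called higher under drought. All 9 with a title-heat difference of at least 1 passed a limit elsewhere, 8 of them in drought, 4 in submergence and 6 in title-cold. None of the 20 had a rise of at least 1 within all limits. A partner that rose more than the lowest member must pass a limit, or it would be a member. This outcome was therefore mostly fixed by the rule, and nothing is read from it.

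The partner of highest rise was c164527.graph_c0, whose member component is one of the genes read in title-heat only. It had 793 and 887 CPM in title-heat, against 6.76 and 5.65 under drought, 1.24 and 2.42 in submergence, 0.88 and 0.738 in title-cold, and 4.15 and 2.64 in control (edgeR adjusted p = 1.74e-06 for title-heat). It was left out of the list because its title-cold difference of −1.26 passed the limit. Another component, c164527.graph_c2, had a title-heat difference of −0.25 (edgeR adjusted p = 0.402). The partner c159670.graph_c1 had 144 and 155 CPM in title-heat, against 11.5 and 31.3 under drought, 0.207 and 0.382 in submergence, 0.44 and 0.134 in title-cold, and 5.04 and 5.09 in control (edgeR adjusted p = 0.000154 for title-heat). It was called higher under drought (adjusted p = 0.00845, edgeR) and lower in submergence (adjusted p = 0.00119, edgeR) and in title-cold (adjusted p = 0.00262, edgeR).

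Other partners took different courses. The cluster c162373.graph_c1 rose in every treatment, most in submergence and in title-heat. It had 118 and 132 CPM in submergence and 123 and 120 CPM in title-heat, against 5.38 and 4.21 in control (edgeR adjusted p = 4.57e-06 and 7.93e-06). Its levels were 11.1 and 12.4 CPM under drought and 20.1 and 12.3 CPM in title-cold (edgeR adjusted p = 0.0057 and 0.00112). The cluster c160348.graph_c1 rose in title-heat, with 179 and 207 CPM against 70.8 and 56.1 in control (edgeR adjusted p = 0.00149). It fell under drought, with 18.2 and 30.8 CPM (edgeR adjusted p = 0.0032), and by less in submergence, with 38.6 and 42.2 CPM (edgeR adjusted p = 0.0322). The most abundant partner, c160071.graph_c0, had 254 and 299 CPM in title-heat against 271 and 302 in control, a difference of −0.06 that did not pass the test (edgeR adjusted p = 1). It fell in title-cold, to 56.5 and 44 CPM (edgeR adjusted p = 4.99e-05). Components under 1 number thus included rises in title-heat with and without changes past the limits elsewhere, and levels that did not pass the test. Rises of at least 1 without such changes were those of the members, an outcome mostly fixed by the rule.

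**Figure D5:**
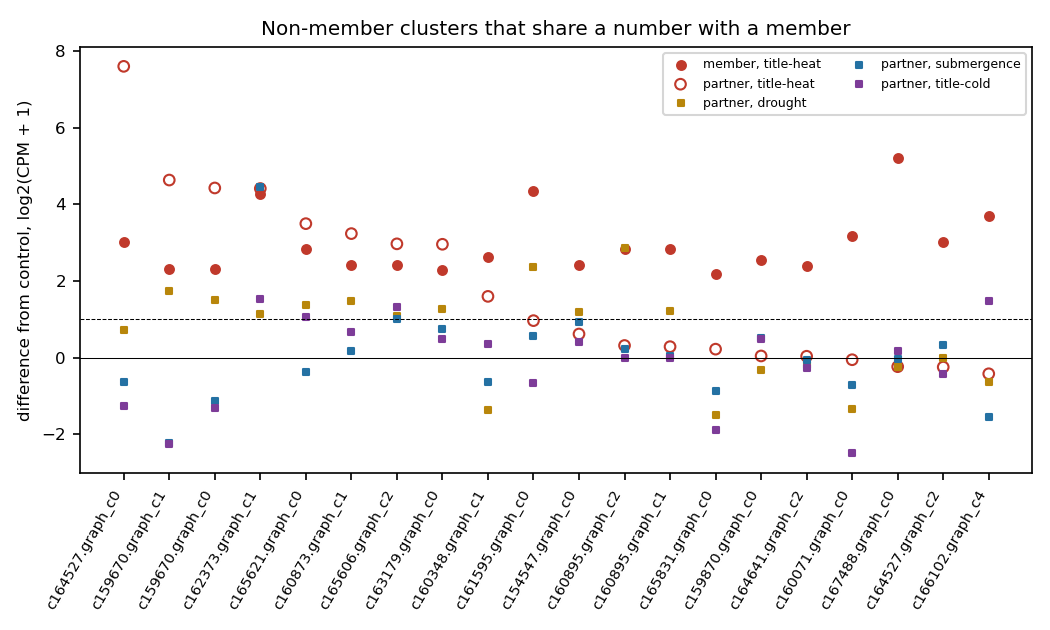
Differences from control on the log2(CPM + 1) scale for the 20 kept clusters that are not members but share a number with one, ordered by their title-heat difference (open circles), with their member's title-heat difference (filled circles, the higher where there are several members) and their own differences in drought, submergence and title-cold (squares); the dashed line marks 1. Title-heat differences of these clusters run from 7.60 to −0.42, and 9 lie at 1 or above.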

How the data were processed

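The authors deposited whole-number read counts per assembled cluster, 1 column per library, which were taken as raw counts. Per the submitters' processing notes, the tools included RSEM and DESeq 1.10.1, whose roles are unstated. Aligner and assembly: not given in the sources used here. If RSEM made the counts, reads shared by similar sequences were divided by estimate. The table's name also mentions bermudagrass and cold, and whether the counts belong to another species was not tested. All 10 columns match sample descriptions. Sample groups follow the titles.

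CPM was computed here from counts of the 21817 kept genes with edgeR 4.0.16 TMM factors in R 4.3.3, and differences as means of log2(CPM + 1), which understate the change of low genes. For tests, counts were filtered with filterByExpr (minimum count 10, total 15; 27571 genes) and fitted in one robust quasi-likelihood model of 5 groups with 5 residual degrees of freedom; p-values were adjusted over all tested genes. DESeq2 1.42.0 was an alternative. The code was tested on simulated data. Named genes were the first 10 by rank, the 5 of highest title-heat level, the 3 flattest elsewhere (of 7 tied, by rank), those nearest each threshold and the 5 most abundant partners; any other gene named was chosen after its values were seen. The members, lists and tests were chosen with earlier results of these data known. Same-numbered replicates were not paired by the labels.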

Additional observations from a re-analysis of the deposited data

How the results depend on the processing

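Lists rebuilt under other settings held 105 (pseudocount 0.5 CPM) to 147 (no filter) of the 150 members, 106 with a pseudocount of 2 CPM and 120 with total counts. With a library left out they held 127 to 145. The number of genes meeting the rule was 690, but 427 with a minimum of 30 counts and 669 to 901 with a library left out. Of 270 values of the 18 named members under alternatives 0 reversed, and the lowest difference was 1.55. Genes called in title-heat numbered 5681, and 3020 to 5747 with a library left out, lowest without title-heat replicate 2. Leaving out a library gave 10 to 28 members called under drought, 16 to 34 under submergence and 5 to 23 in title-cold. The members called under drought, 29, were 53 with no filter and 18 with DESeq2, and those in title-cold, 21, were 37 with no filter. A fit with 1 library in a group assumes that it varies like the other groups. Replicate numbers share no origin in the labels, and same-numbered libraries had correlations of −0.02 to 0.05 in their deviations. With replicate as a block 144 members were called higher in title-heat, against 147, and 25, 26 and 16 were called under drought, submergence and title-cold. Of 184 counts under alternatives 164 stayed within 1.5 times. The splits by direction moved further. Called higher and lower were 40 and 13 under drought, 19 and 24 in submergence and 16 and 21 in title-cold with no filter, and 15 and 3, 8 and 15, and 5 and 12 with DESeq2. With total counts title-cold had 22 and 5 and submergence 24 and 6. Levels under 1 CPM rest on few counts, which limits differences between the groups other than title-heat.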
